A study of Homo sapiens with 19 samples.

Results

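ERRα peaks that parental SKBr3 cells had and lapatinib-resistant cells did not were examined as a group of genomic regions. The peaks were called in pSKBr3 cells, the parental line, and a peak was counted as lost when no peak of LRSKBr3 cells, the resistant line, overlapped it by as little as 1 bp. The members were therefore chosen by measured values, namely the positions of the peaks called in both lines. Of 22539 parental peaks, 2860 were lost (12.7%) and 19679 were retained. The loss itself is what the rule selected and is not a finding.

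The study mapped ERRα binding by ChIP-seq, in which DNA bound by ERRα in crosslinked chromatin is recovered with an antibody and sequenced, in 2 human HER2-amplified breast cancer lines, SKBr3 and BT-474. The pSKBr3 cells were untreated, whereas the LRSKBr3 cells were kept in 2 µM lapatinib, an inhibitor of the EGFR and HER2 kinases, so the resistant state and the presence of the drug cannot be told apart. The other 6 lists come from SKBr3 and BT-474 cells that were starved of serum for 24 h and then received PBS vehicle (veh), 100 µM EGF or 100 µM heregulin (HRG) for 90 min. Whether the pSKBr3 and LRSKBr3 cells were starved of serum is not given in the labels, so the parental and SKBr3 vehicle cells may differ in this. The 19 sequenced samples (13 ChIP and 6 input libraries) gave 8 deposited peak lists, of 22539 to 41271 peaks. Each SKBr3, pSKBr3 and LRSKBr3 list pools 2 ChIP libraries and each BT-474 list rests on 1, so each condition has 1 list. No difference between conditions could be tested against a spread between replicates, and no P value is given. The lists carry no tag counts, so the depth of the libraries is unknown. The LRSKBr3 list held 39777 peaks, more than the parental list, and a region without a peak is one that did not pass the authors' threshold, not one shown to be unbound. Percentages are followed, in parentheses or after the word interval, by 95% Wilson intervals, which cover counting error only.

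ERRα is an orphan nuclear receptor that binds DNA at the ERR response element (ERRE), TCAAGGTCA, and whose best known targets encode enzymes and carriers of mitochondrial energy metabolism. Many of its sites lie at or near gene starts, and others lie in introns and between genes, where nuclear receptors share sites with other transcription factors. AP-1, a dimer of FOS and JUN family proteins made in response to growth factors, recognises TGACTCA, which reads TGAGTCA on the other strand.

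The sequences below are 201-bp windows around the centres of lost sites (GRCh37, which is hg19), shown because they are among the highest-scoring lost sites with an ERRE word and with an AP-1 word outside exons. The capitals mark the word, and in the ERRE windows TGACCTTGA is TCAAGGTCA read on the minus strand.
ERRE window in an intron of NFASC, chr1:204835428-204835628, plus strand: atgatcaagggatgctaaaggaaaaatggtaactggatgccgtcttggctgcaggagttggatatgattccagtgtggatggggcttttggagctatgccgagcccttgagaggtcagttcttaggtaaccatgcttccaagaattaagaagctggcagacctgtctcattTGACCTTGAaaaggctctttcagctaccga
ERRE window between genes, nearest to DAOA, chr13:105345997-105346197, plus strand: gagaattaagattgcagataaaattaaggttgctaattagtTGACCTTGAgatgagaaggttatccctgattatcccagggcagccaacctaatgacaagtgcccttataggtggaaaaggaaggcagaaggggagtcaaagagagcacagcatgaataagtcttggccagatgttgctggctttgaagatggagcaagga
AP-1 window between genes, nearest to SNX19, chr11:130697667-130697867, plus strand: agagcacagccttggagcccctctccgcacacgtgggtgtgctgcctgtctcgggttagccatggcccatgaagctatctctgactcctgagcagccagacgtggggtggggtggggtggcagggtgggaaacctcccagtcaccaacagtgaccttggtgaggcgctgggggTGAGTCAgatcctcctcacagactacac
AP-1 window between genes, nearest to HTR1B, chr6:77750340-77750540, plus strand: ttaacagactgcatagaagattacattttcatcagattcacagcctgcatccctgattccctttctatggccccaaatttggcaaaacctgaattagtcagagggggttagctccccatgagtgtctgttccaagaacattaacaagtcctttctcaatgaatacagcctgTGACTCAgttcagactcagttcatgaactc
Each window held 1 such word. The NFASC and HTR1B sites were called in all of the other 6 lists, the SNX19 site in the 3 SKBr3 lists and the DAOA site in SKBr3 cells on vehicle and on EGF. The windows thus include sites that recurred in every other list and sites that were seen in few.

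Lost sites were mostly weak parental peaks. Each peak carries the score that the authors' peak caller gave it, 10 times the negative log10 of its P value, which can be read only within a list. The median score was 65.6 at lost sites and 162 at retained sites, and the median lost site stood at percentile 16.5 of the parental list. When the parental list was cut into 10 equal bins by score, the lost share fell from 41.4% (39.4–43.5) in the lowest bin to 22.5% in the third, 9.05% in the fifth and 0.222% in the highest. The lowest bin held 933 lost sites and the highest 5. Retained peaks of low score were also called less often in the other lists, so the main shares below are also given for retained peaks weighted to the score bins of the lost sites (weighted retained peaks).

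The rule divides some close neighbours. At its edge, the lost site of smallest gap was a peak of score 65.39 nearest to TUBB4A that abutted a LRSKBr3 peak, and lost sites nearest to ARF1 (score 54.62) and PIM3 (score 67.71) lay 4 bp from one. Just outside it, retained peaks near LAPTM5 (score 129.97) and SIX2 (score 80.09) overlapped a LRSKBr3 peak by 4 and 8 bp. Few lost sites were of this kind. The median gap from a lost site to the nearest LRSKBr3 peak was 29025 bp, 20 sites had one within 100 bp, 153 (5.35%) within 1 kb and 771 (27%) within 10 kb, and 624 (21.8%) had none within 100 kb.

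Presence in the other 6 lists, which come from libraries the rule did not use, divided the lost sites. Of the 2860 sites, 1500 (52.4%, interval 50.6–54.3) were called again in at least 1 of the lists and 1360 (47.6%) were in none of them. Over all parental peaks the share called in at least 1 list was 90.3%, and among retained peaks it was 95.8%. The retained peaks weighted to the scores of the lost sites still had a share of 91.0%. The share of lost sites depended on how they were defined, and was 83.1% with both lists at a P of 1e-10, where that of retained peaks was 98.3%.

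The lost sites were less often called than retained sites in every one of the lists. In SKBr3 cells, 726 lost sites (25.4%, interval 23.8–27) were called on vehicle, 648 (22.7%, interval 21.2–24.2) on EGF and 837 (29.3%, interval 27.6–31) on HRG. The shares of retained peaks were 75.7%, 74.4% and 86.0%, and those of all parental peaks 69.3%, 67.8% and 78.8%. In BT-474 cells, 573 lost sites (20%, interval 18.6–21.5) were called on vehicle, 422 (14.8%, interval 13.5–16.1) on EGF and 608 (21.3%, interval 19.8–22.8) on HRG. Here the shares of retained peaks were 55.8%, 43.1% and 54.5%, and those of all parental peaks 51.2%, 39.5% and 50.3%. Weighting the retained peaks by score brought them to 60.1%, 58.6% and 72.8% in SKBr3 cells and to 40.6%, 29.4% and 41.5% in BT-474 cells, above the lost sites in each list. The lost share was also the lower one in all 10 score bins for 5 of the lists and in 9 of 10 for BT-474 EGF, and on 23 of 23 chromosomes with retained peaks for each list.

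**Figure D1:**
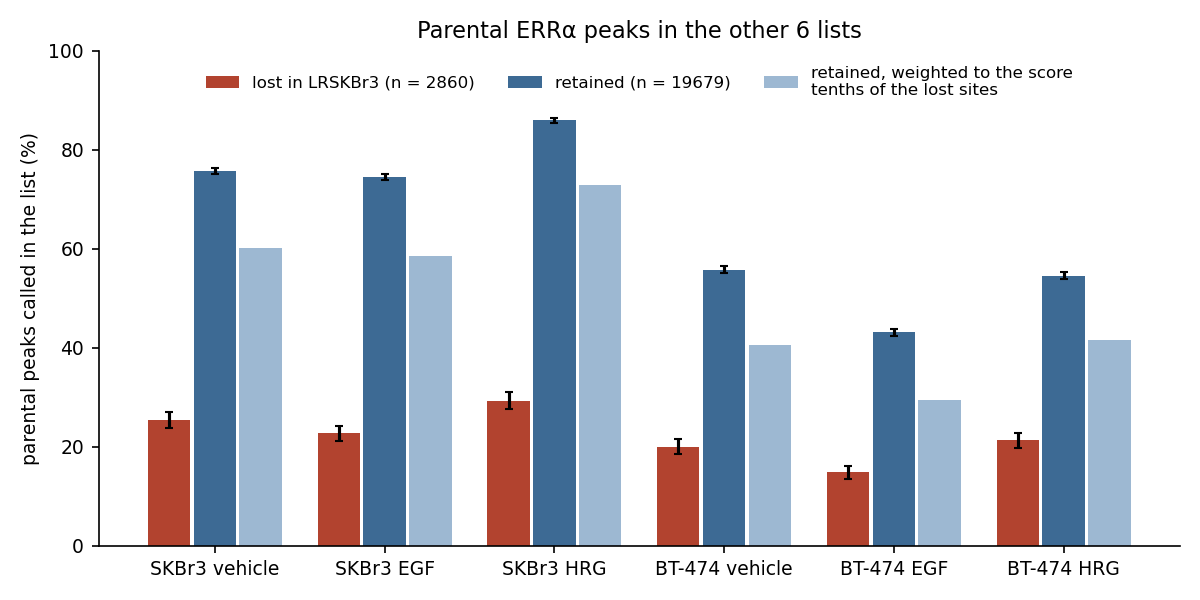
Bars give the percentage of parental ERRα peaks that were called in each of the other 6 lists, for lost sites, for retained sites and for retained sites weighted to the score bins of the lost sites; whiskers are 95% Wilson intervals. Lost sites lie between 14.8% and 29.3%, below the weighted retained sites in every list.

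Presence in other lists rose with the parental score of the lost sites. It was 45.0% (41.9–48.2) in the lowest score bin, 50.6% (46.3–54.9) in the third and 71.6% in the fifth, whereas retained peaks of the lowest bin already stood at 88.5%. In the 4 highest bins the lost sites numbered 43, 22, 20 and 5, and their shares had wide intervals.

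**Figure D2:**
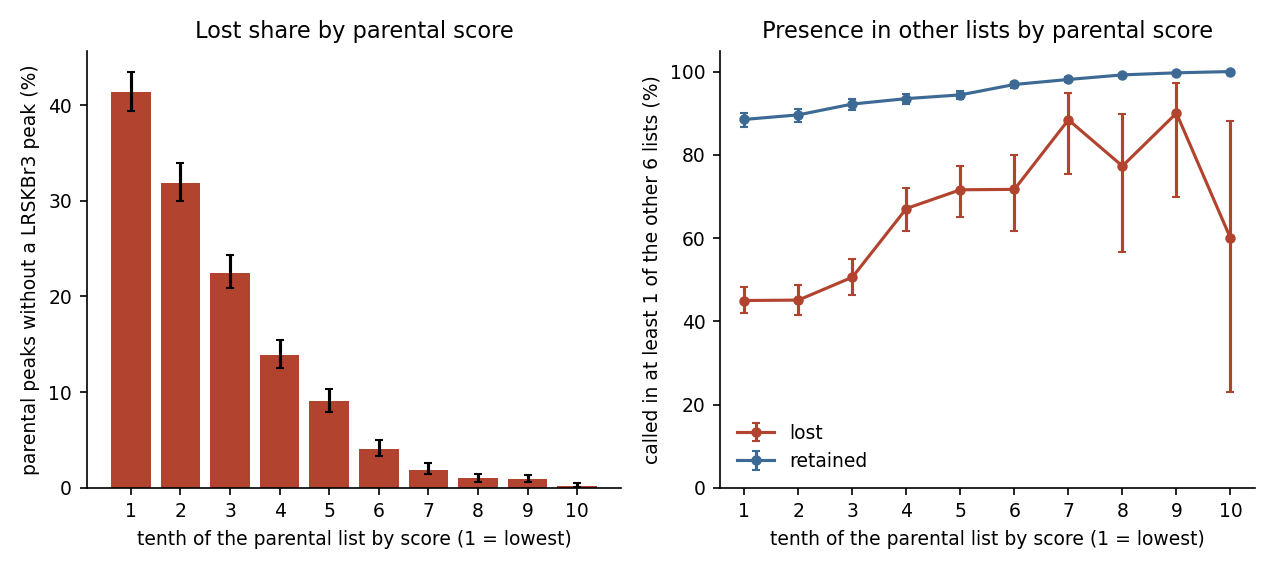
Left, the percentage of parental peaks without a LRSKBr3 peak in each of the 10 bins of the parental list by score; right, the percentage of lost and of retained peaks called in at least 1 of the other 6 lists in each bin; whiskers are 95% Wilson intervals. The lost share falls from 41.4% to 0.222%, and the lost sites lie below the retained sites in each bin.

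The number of other lists that called a lost site was spread unevenly. There were 579 sites in 1 list, 258 in 2, 283 in 3, 152 in 4 and 106 in 5, and 122 sites (4.27%, interval 3.58–5.07) in all 6. The share in all 6 lists was 33.7% of retained peaks, 16.6% of weighted retained peaks and 30.0% of all parental peaks. By cell line, 785 lost sites (27.4%) were called in SKBr3 lists only, 527 (18.4%) in both lines and 188 (6.57%, interval 5.72–7.54) in BT-474 lists only. The last class took 1.46% (1.30–1.64) of retained peaks and 2.83% of weighted retained peaks. Lost sites were less often called both in any SKBr3 list (45.9%, retained 94.4%) and in any BT-474 list (25%, retained 62.1%). The larger BT-474-only class therefore does not mark a leaning of lost sites towards BT-474 cells. These 188 sites lay on chromosome 7 (32 sites), chromosome 1 (20), chromosome 20 (19), chromosome 3 (16) and others, and their median score was 64.6.

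Lost sites called in only some of the SKBr3 lists were read against both the raw and the weighted retained peaks. Sites called on vehicle and not on HRG made up 13.7% (12.5–15.1) of lost, 7.60% (7.24–7.98) of retained and 8.38% of all parental peaks, but 13.9% of weighted retained peaks. Sites called on HRG and not on vehicle made up 17.6% (16.3–19.1) of lost, 17.9% (17.4–18.5) of retained and 26.6% of weighted retained peaks. The share called on vehicle without either growth factor was 7.41% of lost, 2.69% of retained and 5.21% of weighted retained peaks, and the share called on a growth factor without vehicle 20.5% (19.1–22), 18.7% (18.1–19.2) and 28%. All of these shares stand beside a lower presence of lost sites in each SKBr3 list.

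Lost sites were less often at promoters than retained sites. Positions were taken from the peak centre relative to the starts of 19794 protein-coding genes, and a centre within 1 kb of a start was called a promoter. Of the lost sites, 283 (9.90%, interval 8.85–11) were promoter sites, 89 (3.11%) lay in exons, 1086 (38.0%) in introns and 1402 (49.0%, interval 47.2–50.9) between genes. Of the retained sites, 25.4% (24.8–26) were promoter sites, 36.8% lay in introns and 35.1% (34.4–35.7) between genes. Weighted to the scores of the lost sites, 19.7% of retained peaks were promoter sites, and the promoter share was lower among lost sites in 10 of 10 score bins. The promoter share of lost sites was 22% with both lists at a P of 1e-10 (retained 28.3%), 17.1% with a LRSKBr3 list reduced to the parental size (retained 25.7%) and 16.6% with the parental list alone at 1e-10 (retained 28.2%). Read the other way, 5.35% (4.78–5.99) of parental promoter peaks, 13% (12.3–13.8) of intronic peaks and 16.9% (16.1–17.7) of intergenic peaks were lost. The median distance to a start was 43113 bp for lost and 12061 bp for retained sites, and 918 lost sites (32.1%) lay more than 100 kb from any start, against 13.4% of retained and 15.6% of weighted retained sites.

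The lost promoter sites differed from the distal ones in where they recurred, as did retained promoter sites. Of the 283 lost promoter sites, 139 (49.1%, interval 43.3–54.9) were called in SKBr3 cells on HRG, whereas 28 (9.89%, interval 6.93–13.9) were called on vehicle and as many on EGF. Of the 2577 lost sites farther from a start, 27.1% (25.4–28.8) were called on HRG and the same share on vehicle. Retained promoter sites had the same order, with 86.7% on HRG, 62.7% on vehicle and 58.8% on EGF, while retained sites farther away had 85.8%, 80.1% and 79.7%. In BT-474 cells the lost promoter sites were called in 15.9% on vehicle, 7.07% on EGF and 13.4% on HRG, and the retained ones in 47.8%, 28% and 39%. A higher share on HRG than on vehicle in SKBr3 cells, and not in BT-474 cells, was thus seen at lost and at retained promoter sites. Their median score was 75.7, and their windows had a mean GC content of 63.6% ± 10.1 (SD over sites, n = 283).

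**Figure D3:**
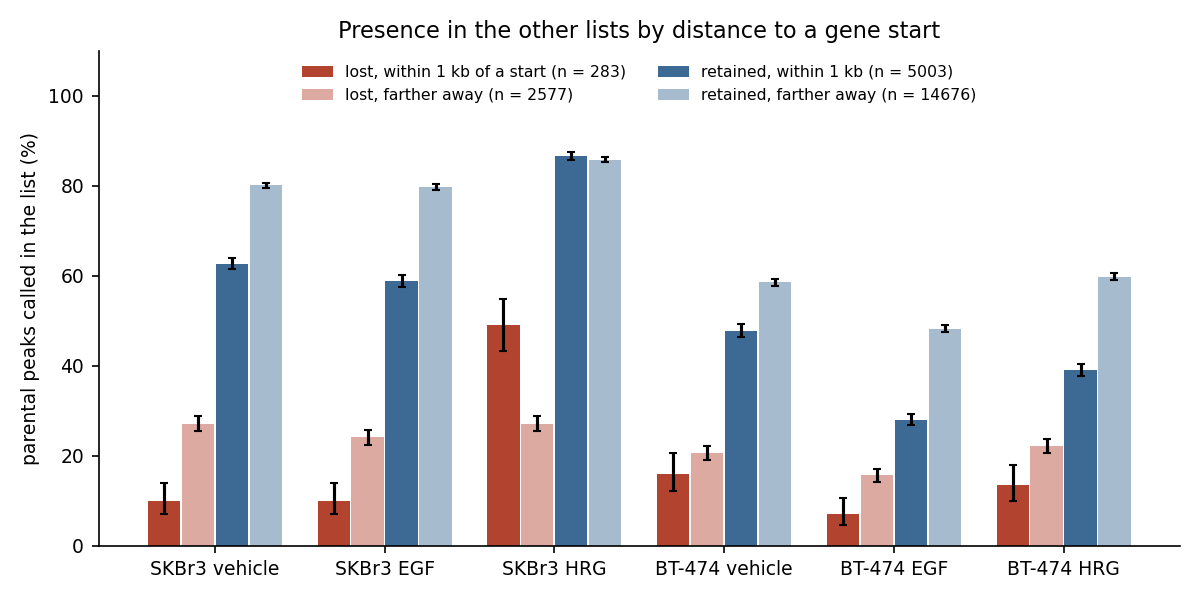
Bars give the percentage of parental peaks called in each of the other 6 lists, for lost and retained peaks within 1 kb of a gene start and farther away; whiskers are 95% Wilson intervals. Lost promoter sites reach 49.1% in the SKBr3 HRG list and at most 15.9% in the other 5 lists.

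The highest-scoring lost promoter sites belonged to genes of different roles. The strongest lay 218 bp from the start of TTI1 (chr20:36660340-36662939, score 939.6), which encodes a partner of the PI3K-related kinases, and it was called in none of the other lists. The site 89 bp from the start of ANKMY2 (chr7:16684052-16686528, score 553) was called in all 6, at percentiles between 69.2 (SKBr3 HRG) and 89.5 (BT-474 HRG) of those lists. The third, at SLC25A4 (chr4:186063625-186064664, score 454, 275 bp from the start), is at the gene of a mitochondrial ADP/ATP carrier, and it was called in every list but SKBr3 vehicle. Its percentile was 6.68 in SKBr3 EGF, 44.2 in SKBr3 HRG, 64.0 in BT-474 vehicle, 45.4 in BT-474 EGF and 46.4 in BT-474 HRG, and the nearest LRSKBr3 peak was 111218 bp away. The sites at ZNFX1 (chr20:47894129-47896357, score 325), called in BT-474 EGF alone, and at EIF6 (chr20:33871237-33873472, score 314), a ribosome biogenesis factor, called in none, completed the first 5. EIF6 had a LRSKBr3 peak 2325 bp away.

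The 10 lost sites of highest score are an exception to the weakness of the group, with scores from 594 to 1743. Of these, 6 lay on chromosome 20. The first (chr20:45987041-45990518, score 1743, percentile 95.3) was 3147 bp from a start of ZMYND8, a chromatin reader, and was called in SKBr3 vehicle alone, at percentile 93.8. The second (chr10:43521497-43523715, score 1406) lay between genes, 49911 bp from RET, a receptor tyrosine kinase, and was called in all 6 lists at percentiles of 85.5, 90.9 and 94.9 in SKBr3 vehicle, EGF and HRG and of 98.3, 97.7 and 98.4 in the BT-474 lists in the same order. The RET site was thus strong wherever ERRα was mapped outside the resistant line, and the nearest LRSKBr3 peak lay 76636 bp from it. The third (chr7:123194608-123198838, score 1107) lay in an intron of NDUFA5, a subunit of respiratory complex I, 1010 bp from its start. It was called in the BT-474 lists only, at percentiles of 73.0, 69.7 and 60.7 on vehicle, EGF and HRG.

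The remaining 7 were mixed in their recurrence. Sites nearest to PFDN4 (score 1053), TTI1 (score 939.6) and BMP7 (score 594), a bone morphogenetic protein, were in no other list. The site nearest to ZNF33B (score 752) was called in SKBr3 vehicle at percentile 53.7 and in SKBr3 HRG at percentile 2.32. The site nearest to MPPED2 (chr11:30733927-30735190, score 653) was called in all 6 lists at percentiles of at least 73.0. Sites nearest to PTGIS (score 627), the prostacyclin synthase gene, and in an intron of B4GALT5 (score 611), a galactosyltransferase, were called in 3 and 2 BT-474 lists. Their peaks were 13546 and 7438 bp wide. The windows of these 10 sites held no ERRE word and no AP-1 word.

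The 122 lost sites called in all 6 lists had an ERRα peak in SKBr3 and BT-474 cells on vehicle, EGF and HRG. Their median score was 100.2, from 50.06 to 1406, and 6 were promoter sites, 52 intronic and 61 intergenic, with none of 3 kb or wider. After RET and MPPED2, the strongest were an intronic site of NFASC (chr1:204834783-204836273, score 562), which encodes the adhesion protein neurofascin, the ANKMY2 promoter, and an intronic site of the transporter gene ABCC12 (chr16:48160441-48162084, score 536). The NFASC site stood at percentile 83.0 in SKBr3 vehicle and between 26.9 and 70.2 in the other 5 lists. The ABCC12 site stood at percentile 70.0 in SKBr3 vehicle and between 81.4 and 98.3 in the others. Among sites called in no other list, the strongest after PFDN4, TTI1 and BMP7 were one in an intron of ACSS2 nearest to GSS (score 473) and one nearest to LRRC4 (score 414), which were 10180 and 4723 bp wide.

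Lost sites were concentrated on some chromosomes. The lost share was 27.2% (24.6–30.1) on chromosome 20, 27% (23.4–30.9) on chromosome 13, 25.9% (23.7–28.2) on chromosome 7 and 21.9% (18.6–25.5) on chromosome 8. On the other autosomes it ran from 4.72% (3.26–6.78) on chromosome 22 to 15.8% on chromosomes 3 and 5. Chromosome Y had only 4 parental peaks, of median score 61, all lost (interval 51–100) and 75% of them in no other list. So few weak peaks are not read as a loss of binding on that chromosome. Chromosomes 7, 8, 13 and 20, grouped after these shares were seen, held 909 lost sites, 31.8% of the lost and 13.3% of the retained peaks. The number of LRSKBr3 peaks for each parental peak was lowest among the autosomes on chromosomes 13, 20 and 7, at 1.15, 1.31 and 1.47, and was 1.78 on chromosome 8. This ratio comes from the lists that define the loss and is not a separate observation.

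**Figure D4:**
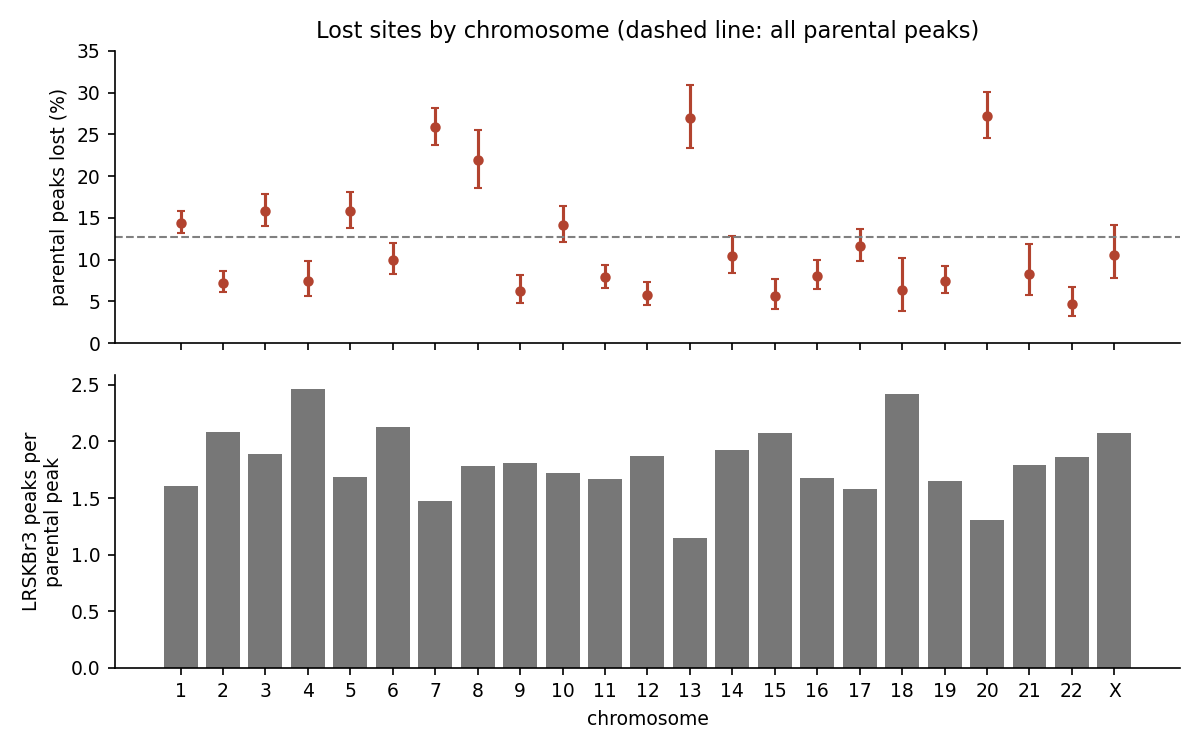
Top, the percentage of parental peaks lost on each chromosome with 95% Wilson intervals (chromosome Y, with 4 peaks, is not drawn; the dashed line is the 12.7% of all parental peaks); bottom, the number of LRSKBr3 peaks for each parental peak. Chromosomes 7, 8, 13 and 20 lie above the others, and 13, 20 and 7 have the lowest bars.

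The lost sites of these 4 chromosomes differed from the other lost sites. Of them 44.9% (41.7–48.1) were called in at least 1 other list, against 56.0% (53.8–58.2) of the 1951 lost sites elsewhere, and 6.82% against 11.3% were promoter sites. Broad peaks of at least 3 kb made up 14.4% (12.3–16.8) of them and 4.25% (3.44–5.24) of the lost sites elsewhere. Retained peaks had the same contrast, with 10.2% and 2.38% of broad peaks. In all, 214 lost sites (7.48%, interval 6.57–8.5) were broad against 3.41% of retained and 1.4% of weighted retained peaks. The median width was 1084 bp at lost and 1201 bp at retained sites, but in the lowest score bin it was 1008 bp at lost and 942 bp at retained sites. Of the broad lost sites, 73 lay on chromosome 20 and 50 on chromosome 7, none lay on chromosome 1, 2 were promoter sites, and 45.8% (39.3–52.5) were called in another list, against 92.6% of broad retained peaks.

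Some lost sites followed each other along the genome. Runs of consecutive parental peaks that were all lost, with no LRSKBr3 peak between them, numbered 160 with 3 or more sites and took in 631 lost sites, while 1749 lost sites stood alone. The longest run held 12 sites over 265.5 kb at RBFOX3 (chr17:77193523-77458996), the gene of the neuronal splicing factor known as NeuN. Of its sites 5 were called in an SKBr3 list and none in a BT-474 list. A run of 9 sites over 2671.7 kb on chromosome 16 (31857686 to 34529351) took in ZNF267 and the TP53TG3 genes, a family of near-identical copies to which short reads are hard to assign. Next came 4 runs of 8 sites. They lay on chromosome 13 (112030961 to 113132001) around SOX1, a neural transcription factor, on chromosome 8 (132339582 to 133397894) with EFR3A and the potassium channel gene KCNQ3, on chromosome 10 (77233060 to 77515998) at LRMDA, and on chromosome 20 (41372194 to 41608453) at the phosphatase gene PTPRT, the last being tied with the others in number. None of the 8 sites of the SOX1 run was called in another list, whereas 6 of the 8 on chromosome 8, 4 of the 8 at LRMDA and 3 of the 8 at PTPRT were. The median scores of these runs were between 54.3 and 78.6 and their highest scores between 86.8 and 168, beside a median of 137 over all parental peaks.

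Windows of 1 Mb gave the same picture and showed the other lists beside it. On chromosome 20 between 41 and 42 Mb, 18 of 20 parental peaks were lost, and the lists held 8 LRSKBr3, 38 SKBr3 vehicle, 18 SKBr3 EGF and 4 SKBr3 HRG peaks. On chromosome 3 between 7 and 8 Mb, all 14 parental peaks were lost, with 2 LRSKBr3, 139 SKBr3 vehicle, 42 SKBr3 EGF and 11 SKBr3 HRG peaks, and 5 to 9 peaks in each BT-474 list. In both windows the peaks on vehicle outnumbered those on HRG. On chromosome 17 between 77 and 78 Mb, 19 of 29 parental peaks were lost, and the order was the opposite, with 1 peak on vehicle, 3 on EGF and 21 on HRG. That window held 22 LRSKBr3 peaks, and 12, 6 and 13 peaks in BT-474 cells on vehicle, EGF and HRG. These windows were chosen after their values were seen. Among the 12 windows of most lost sites, 6 held more peaks on vehicle than on HRG and 6 the reverse.

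ERRE words were present at lost sites and centred on them. Within 100 bp of the centre, 176 lost sites (6.15%, interval 5.33–7.09) held the word TCAAGGTCA on either strand, against 0.385% (0.254–0.582) of windows of the same length 2 kb to each side. Among retained sites the word was in 8.38% (8.01–8.78), and in 8.96% after weighting by score. With both lists at a P of 1e-10 the shares were 7.91% and 7.95%, and with a LRSKBr3 list reduced to the parental size 8.02% and 8.13%. Both of these settings drop weaker LRSKBr3 peaks, so parental peaks that overlap only such a peak count as lost. With the parental list alone at 1e-10 they were 5.97% and 8.01%, and with a stricter definition of overlap 6.10% and 8.83% (50% of both peaks) or 5.49% and 8.94% (centres within 500 bp). The shorter word AAGGTCA, which is contained in the ERRE word, was in 21.2% (19.7–22.7) of lost and 28.3% (27.6–28.9) of retained sites, with 3.65% and 3.94% in the flanks, and in 29.3% of weighted retained sites. The AP-1 words were in 126 lost sites (4.41%, interval 3.71–5.22; flanks 3.11%) and in 5.89% (5.57–6.23; flanks 3.22%) of retained and 6.89% of weighted retained sites. With an overlap of 50% of both peaks the AP-1 shares were 5.39% and 5.82%. Over all 22539 parental windows the ERRE word was in 8.10% and the AP-1 words in 5.70%.

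The ERRE share of lost sites depended on where they lay and where they recurred. It was 1.77% at lost promoter sites and 6.64% (5.74–7.66) at lost sites farther from a start, against 1.86% and 10.6% (10.1–11.1) at retained ones. It was 4.41% (3.44–5.64) at lost sites in no other list, 7.73% (6.49–9.20) at those in at least 1, and 10.7% (13 of 122 sites, interval 6.33–17.4) at those in all 6. Retained sites had the same order, with 5.96% (4.54–7.79) in no other list, 8.49% (8.1–8.9) in at least 1 and 10.7% (10.0–11.5) in all 6. Of the 122 sites 16 (13.1%, interval 8.24–20.2) held an AP-1 word and 41.0% (32.7–49.9) the word AAGGTCA, against 7.35% and 34.2% of retained sites in all 6 lists. Broad sites had few ERRE words whether lost (2 of 214, 0.935%, interval 0.257–3.34) or retained (12 of 672, 1.79%, interval 1.02–3.1).

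**Figure D5:**
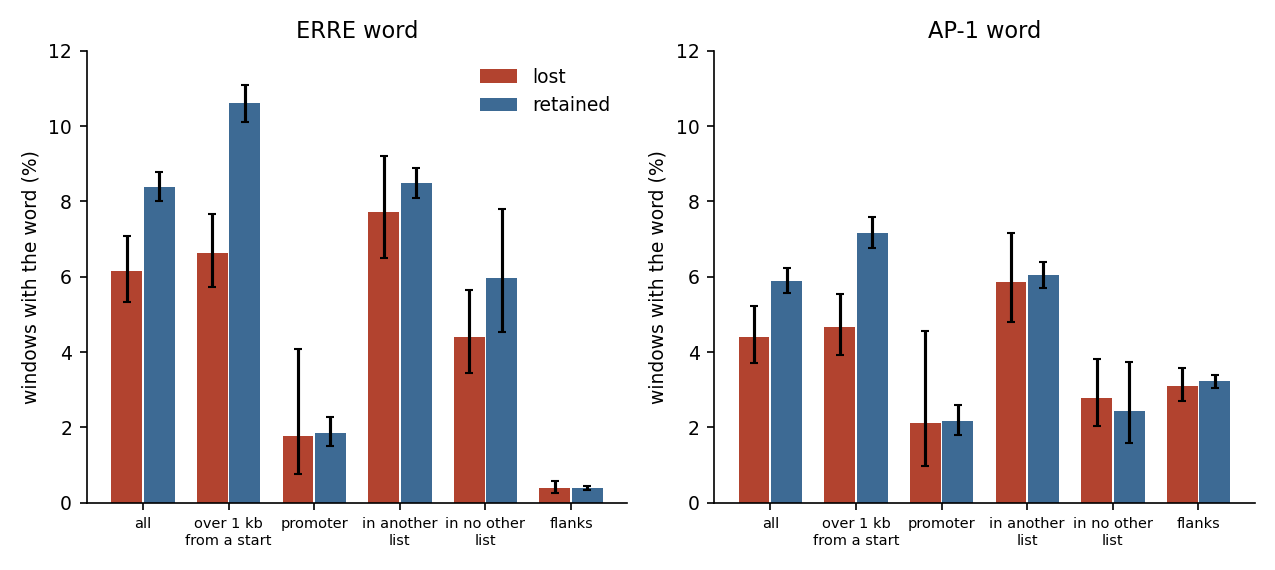
Bars give the percentage of 201-bp windows that held the ERRE word (left) or an AP-1 word (right) at lost and retained sites, in all and in subsets by distance to a gene start and by presence in other lists, and in flanks 2 kb away; whiskers are 95% Wilson intervals. The ERRE word is in 6.15% of lost and 8.38% of retained windows and in less than 1% of flanks. The difference is not seen with both lists at a P of 1e-10 or with lists of equal size. It is seen with the parental list alone at that P (5.97% and 8.01%) and with stricter definitions of overlap.

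After NFASC, the highest-scoring lost sites with an ERRE word included one in an exon of VSIG8 (score 199), called in BT-474 vehicle alone. Others were nearest to DAOA (score 180.02) and in an intron of ZNF44 (score 159.7), and the latter stood at percentile 11.3 in SKBr3 vehicle and between 98.3 and 98.9 in the BT-474 lists. The ZNF44 site was thus among the strongest ERRα peaks of BT-474 cells. The highest-scoring lost sites with an AP-1 word were nearest to C1QTNF3 (score 249.6, SKBr3 HRG alone), SNX19 (score 186), the serotonin receptor gene HTR1B (score 182), RBFOX3 (score 159.65, in no other list) and JAZF1 (score 144, in all 6 lists). The SNX19 site stood at percentile 40.7 of the SKBr3 list on vehicle, 74.5 on EGF and 88.0 on HRG.

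Some words of factors that bind promoters were rarer at lost than at retained sites. Lost sites were also less often promoters, and these words were not counted apart by distance to a start. The ETS word CCGGAAGT was in 0.664% of lost and 1.75% of retained windows, the SP1 word GGGGCGGGG in 1.26% and 2.57%, and the TFAP2 word GCCNNNGGC in 8.81% and 14.3%. Weighted retained windows had 1.42%, 1.71% and 14%, of which the SP1 share lies inside the interval of the lost sites (0.911–1.74). The NRF1 word was in 1 lost window and in 0.229% of retained windows, with overlapping intervals. The GATA word AGATAA was in 10.2% (9.19–11.4) of lost, 7.89% of retained and 9.08% of weighted retained windows, below the flanks of each (12.9% and 10.8%). The FOXA word TGTTTAC (4.09% and 3.94%) and the TEAD word ACATTCC (3.95% and 4.42%) had overlapping intervals. The palindromic oestrogen response element was in 2 lost windows and the GRHL word AACCGGTT in 0 of 2860. Mean GC content was 48.1% ± 10.6 (SD over sites) at lost and 53.0% ± 10.4 at retained sites (51.7% weighted), and 46.4% and 49.7% away from promoters.

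A gene was placed near a site when one of its starts lay within 20 kb of the peak centre. Of the 2860 lost sites 1013 (35.4%) had a gene in range, against 58.7% of retained sites. Of 10690 genes with a parental peak in range, 1335 (12.5%) were near a lost site, and 957 of these also had a LRSKBr3 peak in range. Genes whose parental peaks were all lost and that had no LRSKBr3 peak in range numbered 376 (3.52%). The rule uses the same lists, so these counts describe the loss and do not test it. Of the 376 genes, 300 had a peak in range in at least 1 of the other lists, 26 in all 6 and 76 in none. The same shares over all bound genes were not computed, so these counts and the 957 are not read as high or low. Of the 376, 3 had 3 lost sites, CCDC136, OR10J5 and CHGB, each from neighbouring peaks and with no peak in range in any other list.

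The 26 genes with a peak in every other list included genes of transcriptional regulators and signalling proteins. Those of highest score were NFASC, with 2 lost sites (score 562), the zinc-finger genes ZNF844 and ZNF878, which share a site of score 202, and the cadherin gene CDH11, with an intronic site 1887 bp from its start (score 183). CEBPA, a differentiation factor, had an intergenic site 8938 bp from its start (score 177). Among the genes that followed were SP8 (score 165), RGS17 (score 158), ADCY5 (score 147) and CHD7 (score 133). They encode a zinc-finger factor, a regulator of G-protein signalling, an adenylyl cyclase and a chromatin remodeller. TOX3, a luminal transcription factor (score 73.11), stood lower.

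Few genes of oxidative phosphorylation subunits were near a lost site, beside the 12.5% of all bound genes. The other lists of energy metabolism hold few bound genes, and gene shares were not weighted by score or by distance to a start. Of 83 genes of oxidative phosphorylation subunits 80 had a parental peak in range, 3 of them (3.75%) were near a lost site, and only NDUFA5 had no LRSKBr3 peak in range. The lost site near COX8A (score 69.22) was 1 of 5 parental peaks, with 3 LRSKBr3 peaks in range. Of 29 bound genes of the TCA cycle and pyruvate entry, PC, pyruvate carboxylase, was the one near a lost site (score 115, in an intron), with 10 LRSKBr3 peaks in range. Of 24 bound fatty acid oxidation genes, ECHS1, enoyl-CoA hydratase, was the one near a lost site (score 128, 44 bp from the start), and 1 LRSKBr3 peak was in range. For glycolysis and glucose transport, 4 of 28 bound genes were near a lost site (GAPDH, PKM, PKLR and SLC2A10), and each had a LRSKBr3 peak in range. PKLR shared its site with FDPS of the sterol pathway. SLC2A10, a glucose transporter on chromosome 20, had 2 intronic lost sites of 4000 and 2996 bp, each called in SKBr3 HRG and the 3 BT-474 lists.

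For glutathione and antioxidant defence, 4 of 42 bound genes (9.52%) were near a lost site. GPX7, a peroxidase, had a weak intronic site (score 50.56) that was in no other list, and no LRSKBr3 peak in range. GSTZ1 (score 155), PRDX1 (score 154) and GSS (score 473), glutathione synthetase, had a LRSKBr3 peak in range. For glutamine and amino acid metabolism 2 of 23 were near a lost site, and PSAT1, an enzyme of serine synthesis, had no LRSKBr3 peak in range (score 66.37, called in SKBr3 vehicle). SLC1A3, a glutamate transporter, had its 1 parental peak lost (score 75.13) but 2 LRSKBr3 peaks in range. For lipid and cholesterol synthesis 2 of 29 were near a lost site, FDPS and FDFT1, and both had a LRSKBr3 peak in range.

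Of 12 bound genes of ERRs and their coregulators, 4 were near a lost site. NCOA2, a coactivator of nuclear receptors, had no LRSKBr3 peak in range, and its site (score 59.58) was called in the 3 BT-474 lists. PPARGC1B, which encodes the ERR coactivator PGC-1β, and PERM1 had 9 and 3 LRSKBr3 peaks in range. Of 25 bound nuclear receptor genes outside the ERR family 5 were near a lost site. RXRG had no LRSKBr3 peak in range (score 58.22, called in SKBr3 vehicle). RARA, the retinoic acid receptor α gene, had 3 parental peaks, all intronic and all lost, with scores of 592, 78.65 and 63.42. The first was called in the 3 BT-474 lists, and 2 LRSKBr3 peaks lay in range at other positions. Of the 20 bound luminal transcription factor genes, CEBPA and TOX3 had no LRSKBr3 peak in range, while EHF and HES1 lost 2 of 6 and 1 of 7 parental peaks.

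None of 7 bound genes of ERBB receptors and EGF-family ligands was near a lost site. Among receptor tyrosine kinases outside that family, 2 of 24 were, FGFR4 (score 60.40, 234 bp from the start) and EPHB6. Among feedback inhibitors of growth factor signalling, 2 of 17 were, SPRY4 (score 135, 48 bp from the start, called in SKBr3 EGF and HRG) and SPRED3. In the PI3K, AKT and mTOR list 2 of 19 were, MLST8 and EIF4EBP2. All of these genes had a LRSKBr3 peak in range. Of 29 bound AP-1 and immediate early genes, BATF3 was the one near a lost site (score 67.98, in no other list) and had no LRSKBr3 peak in range.

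Adhesion genes included several without any resistant peak. Of 26 bound cadherin and junction genes 5 were near a lost site, and CDH2, CDH11 and TJP1 had no LRSKBr3 peak in range. The CDH2 site, in an intron of the N-cadherin gene (score 58.14), was called in SKBr3 EGF and the 3 BT-474 lists, and the TJP1 site, 161 bp from the start of the gene of the tight junction protein ZO-1 (score 54.20), was in no other list. Of 20 bound integrin and laminin genes, ITGAX (score 60.67) and LAMC1 (score 73.22) had no LRSKBr3 peak in range. Of 9 bound circadian clock genes 3 were near a lost site, BMAL1, PER1 and BHLHE40, and each had a LRSKBr3 peak in range. These lists are small, and their shares are descriptions beside the 12.5% and 3.52% of all bound genes.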

How the data were processed

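ERRα ChIP-seq of human breast cancer cell lines was read from 8 peak lists. The authors aligned reads to hg19 with BWA 0.5.9 and SAMtools 0.1.18 (versions from the submitters' processing notes) and called peaks with MACS against input at a P cutoff of 1e-05, pooling the ChIP libraries of a condition. The only input of BT-474 cells is from vehicle, so the EGF and HRG lists of that line have no input of their own. Median peak width was 1817 to 2012 bp in the BT-474 lists and 1396 to 1405 bp in the 3 SKBr3 lists. The score deposited with each peak is 10 times the negative log10 of P. Labels grouped the samples, and each list was assigned by its name.

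Parental peaks were divided by overlap of at least 1 bp with a LRSKBr3 peak. Shares carry Wilson intervals; in the weighted values each of 10 score bins of retained peaks counts as often as among lost sites. Gene starts are those of GENCODE release 44 lifted to GRCh37, and motif words and GC content were read from GRCh37. The members and the 18 gene lists were chosen with earlier results of these data known. Sites named in the text are the 10 of highest score, the 5 of highest score in all 6 other lists, in none, at promoters, with the ERRE word and with the AP-1 words, the 5 longest runs (a sixth was tied), and genes of the lists. Further genes, chromosomes and windows were named after their values were seen. Overlap, motif search and gene assignment were tested on simulated data. Some genes and 1 sequence that these rules select are not reported here. A planned repeat share was not computed, because the genome used marks no repeats. Alternatives concerned overlap, thresholds, list sizes, windows and distances. Python 3.11.15, numpy 2.4.6, pandas 2.3.3, pysam 0.24.0 and matplotlib 3.10.9 were used.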

Additional observations from a re-analysis of the deposited data

How the results depend on the processing

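The number of lost sites depended on what counts as shared and on the thresholds. It was 6032 when a peak had to overlap by 50% of both peaks, 5479 when centres had to lie within 500 bp, 1011 with both lists at a P of 1e-10, 452 with the parental list alone at that P, and 5839 with the LRSKBr3 list reduced by score to the size of the parental list. In the same order, the share called in at least 1 other list was 75.6%, 73.6%, 83.1%, 75.2% and 68.8%, and the promoter share was 15.8%, 14.9%, 22%, 16.6% and 17.1%, each below that of the retained peaks under the same setting. The promoter share was 19.3% within 5 kb of a start. The ERRE share was 7.91% with both lists at 1e-10 and 8.02% with lists of equal size, where retained peaks had 7.95% and 8.13%. Under these settings the lower ERRE share of lost sites was no longer seen. Both drop weaker LRSKBr3 peaks, so parental peaks that overlap only such a peak count as lost. The ERRE share was lower than the retained share with the parental list alone at 1e-10 (5.97%, retained 8.01%) and with the 50% overlap. It was also lower with the 500 bp centres (5.49%, retained 8.94%) and the 1 kb gap (6.28%, retained 8.35%). It was 21.2% for the word AAGGTCA and 12.7% when the whole peak was searched. The AP-1 share was 5.39% with the 50% overlap (retained 5.82%), 2.88% with the parental list at 1e-10 (retained 5.39%) and 24.4% over the whole peak (retained 25.8%). Without chromosomes 7, 8, 13 and 20, an alternative added after the data were seen, 56.0% were called in another list and 11.3% were promoter sites. Requiring no LRSKBr3 peak within 1 kb, or leaving out peaks of at least 3 kb (also added afterwards), moved none of the shares beyond its interval. The genes without any resistant peak numbered 263 at 1e-10 and 356 within 10 kb. No paired analysis was possible because the ChIP libraries of a line are pooled in 1 list, and for the same reason no replicate could be left out. Peaks without tag counts do not separate weak binding from none.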
